A study of Mus musculus with 18 samples.

Results

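Insulin-like growth factor I, its receptor and 6 of its binding proteins were followed through stretched and unstretched mouse skin at single-cell resolution. The group consists of 8 of the 32285 genes in the deposited count matrices: the ligand gene Igf1, the receptor gene Igf1r, and the binding protein genes Igfbp2, Igfbp3, Igfbp4, Igfbp5, Igfbp6 and Igfbp7. Members were chosen by symbol, from a list drawn up with earlier results of these data known, and all 8 symbols occurred once in each of the 10 matrices. The list holds 1 ligand. Because the list was chosen with levels in view, levels by cell class are given as a description with no test between classes. Tests are kept for the comparison of the arms. The earlier results may have held differences between the arms too, so counts of changed members beside the share of all genes are descriptive.

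Cells came from mouse skin, sorted as living (DAPI-negative) and measured by droplet-based 3′ mRNA sequencing. Every mouse was operated on: the skin was cut near the tail and a subcutaneous path was made up to the neck. In the expanded arm a hydrogel expander was then stitched near the neck, while control mice received none, and mice of the same arm and sequencing round were pooled in 1 tube. Each arm had 5 mRNA libraries, from rounds 1 and 2 at day 1, rounds 1 and 2 at day 2, and round 1 at day 4. Values of the 5 libraries of an arm are given below in that order. Strain, age and sex are not in the labels used here, and "control" means surgery without an expander, not untouched skin.

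IGF-I is a secreted growth factor that signals through the tyrosine kinase receptor encoded by Igf1r, upstream of the PI3K-AKT and MAPK pathways. Most of the ligand outside cells is held by IGF-binding proteins, which can carry it, keep it from the receptor or release it when a protease cuts them. In skin, cells of the dermis, the dermal papilla of the hair follicle among them, are known sources of IGF-I for the epidermis, whose keratinocytes carry the receptor.

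After quality filters 46174 cells were kept, 28842 from control and 17332 from expanded libraries, with 1916 to 8023 cells per library and a median of 6336 to 12766 unique molecular identifiers (UMIs, counted mRNA molecules) per cell in a library. Libraries held 17726739 to 75470722 gene UMIs, and at most 0.377% of the cell barcodes of 1 library were shared with another. Clustering without the 8 genes gave 41 clusters, of which 5, with 1834 cells, stayed unnamed. The rest fell into 17 classes named from listed marker genes, and all class names below mean cells that resemble the class by those markers. A level is the gene's share of all UMIs of the class in 1 library, times 1e+06 (CPM), averaged over the libraries with at least 20 cells of the class. CPM were not divided by gene length, so levels are compared between cells and not between genes. Strand use of the counting is not given in the sources used here, and an antisense gene, Igf1os, overlaps the start of Igf1.

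RNA of fibroblast marker genes was found in every other class, with a lower median in the expanded arm in each class measured in both arms. Whether it came from fibroblasts or was made by the cells of the class was not tested. The defining fibroblast markers (Col1a1, Col1a2, Col3a1, Pdgfra, Dcn, Lum and Dpt) summed to a median of 100163 CPM in control and 34392 CPM in expanded fibroblasts. In basal or follicle keratinocytes their sum had a median of 3139.7 CPM in control and 256 CPM in expanded libraries, and in macrophages or monocytes of 1112 and 174 CPM. Beside low levels, the text therefore gives the level that RNA of fibroblasts would bring. That level takes all of the marker RNA as theirs, with the gene in the same ratio to the markers as in the library's own fibroblasts. How much of a difference such RNA accounts for was not tested.

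All 8 genes lie on GRCm38 as protein-coding genes (GENCODE vM21), Igf1 on chr10:87858265-87937042 (+ strand), Igf1r on chr7:67952827-68233668 (+), Igfbp3 on chr11:7206086-7213923 (−), Igfbp4 on chr11:99041244-99054392 (+), Igfbp6 on chr15:102144362-102149511 (+) and Igfbp7 on chr5:77349240-77408041 (−). Igfbp2 (chr1:72824503-72852474, +) and Igfbp5 (chr1:72857932-72874884, −) are neighbours, with 5457 bp between their ends. Igfbp4, Igfbp5 and Igfbp6 each differed between the arms in at least 3 cell classes, so the bases upstream of their RefSeq starts are shown; Igf1 differed in 4 classes, but its RefSeq window lay wholly within annotated untranslated bases and is not printed (GRCm38.p6, gene strand, 5′ to 3′, untranslated bases left out). Capitals mark matches on either strand. The motifs searched were TATAA of the TATA box, the CCAAT box, the GC box core GGGCGG and the AP-1 motif TGANTCA, none of which overlapped in the windows shown.
Igfbp4, chr11:99040994-99041243 (+): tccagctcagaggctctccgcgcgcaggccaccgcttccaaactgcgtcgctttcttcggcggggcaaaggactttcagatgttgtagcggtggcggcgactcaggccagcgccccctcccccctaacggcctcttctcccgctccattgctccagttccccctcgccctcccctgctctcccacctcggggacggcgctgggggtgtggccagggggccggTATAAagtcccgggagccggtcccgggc
Igfbp5, chr1:72874885-72875115 (−): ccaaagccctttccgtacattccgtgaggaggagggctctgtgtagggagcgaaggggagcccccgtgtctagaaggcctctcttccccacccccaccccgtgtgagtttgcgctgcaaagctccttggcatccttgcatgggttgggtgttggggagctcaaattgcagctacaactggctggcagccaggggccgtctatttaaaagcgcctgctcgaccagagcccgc
Igfbp6, chr15:102143936-102144185 (+): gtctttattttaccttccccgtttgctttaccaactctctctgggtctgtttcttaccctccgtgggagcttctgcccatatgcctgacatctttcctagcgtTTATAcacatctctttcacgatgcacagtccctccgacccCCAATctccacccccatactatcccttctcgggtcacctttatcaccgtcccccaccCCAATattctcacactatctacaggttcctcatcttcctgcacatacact
The Igfbp4 window held 1 TATAA, the letters of a TATA box, at position -28 from the start. The Igfbp6 window held 1 TATAA match at position -147 and 2 CCAAT matches, and the Igfbp5 window held none of the 4 motifs. Among 32851 RefSeq windows of 250 bases, 22.8% held TATAA, 33.8% held CCAAT, 32.7% held GGGCGG and 6.75% held TGANTCA. A match is a run of letters and not evidence of binding.

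Each member had its own distribution over skin cells. Control macrophages or monocytes, dermal papilla cells and fibroblasts had the highest Igf1, at 324 ± 143 (SD, n = 5), 215 ± 69.0 (n = 3) and 136 ± 18.2 CPM (n = 5), and basal or follicle keratinocytes had 3.02 ± 1.59 CPM (n = 5). Ranges over libraries overlapped between the first and the second and between the second and the third of these classes, and fibroblasts did not overlap with endothelial cells, the next in order at 50.6 ± 23.9 CPM (n = 5). The receptor gene was highest in mast cells, at 378 ± 155 CPM (n = 5), and neutrophils, at 288 ± 23.5 CPM (n = 2), and was present in keratinocytes at 77.7 ± 14.5 CPM (n = 5). Fibroblasts led the control order of Igfbp2, Igfbp5 and Igfbp6, dermal papilla cells that of Igfbp3 and Igfbp4, and mural cells, the pericytes and smooth muscle of vessels, that of Igfbp7. The heat map of levels by class shows the same order.

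**Figure D1:**
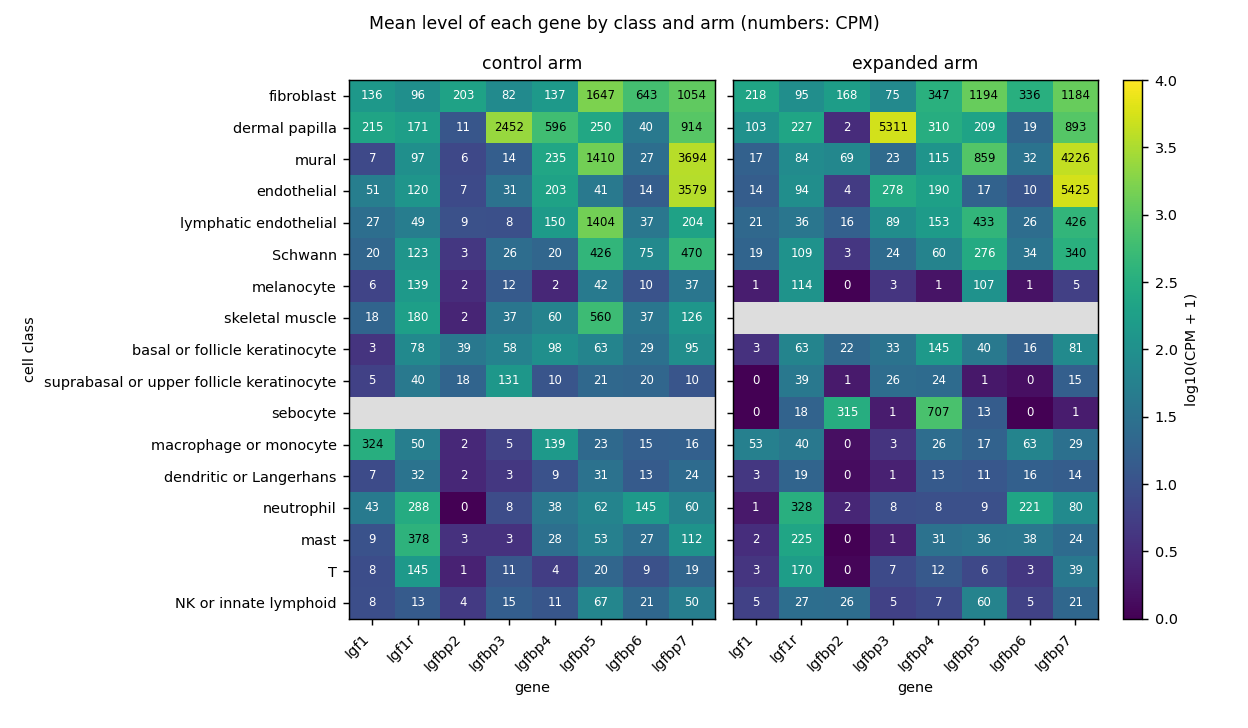
Mean level of the 8 genes (columns) in each cell class (lines), in CPM over libraries with at least 20 cells of the class, for the control arm (left) and the expanded arm (right); colour is log10(CPM + 1), numbers are CPM, and grey means that no library had enough cells. Dermal papilla cells stand out for Igfbp3 (2452 CPM in control, 5311 CPM in expanded libraries) and endothelial and mural cells for Igfbp7 (3579 and 3694 CPM in control libraries).

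Some levels belonged mostly to 1 class. Of all Igfbp6 UMIs in control libraries, fibroblasts held a mean of 96.2% (91.6% to 98.3% over libraries), and in expanded libraries 74.1% (53.5% to 91.3%). Igfbp3 was split between fibroblasts and dermal papilla cells. Dermal papilla cells held 38.7% of the Igfbp3 UMIs in control and 61.0% in expanded libraries, with a range of 5.06% to 87.5% over all libraries. Fibroblasts held more of them in control libraries, 49.7% (16.6% to 84.5%), and 19.25% (5.54% to 48.75%) in expanded libraries. Of the Igf1 UMIs, fibroblasts held 67.3% in control and 82.0% in expanded libraries, and macrophages or monocytes 22.0% and 6.06%. These shares move with the number of cells of each class that were sorted, so they describe the libraries.

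Expanded and control libraries were compared within each class by edgeR's quasi-likelihood test on summed UMIs, with day as a covariate and Benjamini-Hochberg adjustment over all genes tested in the class. A member changed where the adjusted p was under 0.05, and p-values measure the spread between pooled libraries. Of 58 pairs of member and class that could be tested in 11 classes, 19 changed, 5 higher and 14 lower in the expanded arm, in 8 classes. Of all changed genes in those 8 classes, between 26.1% (T cells) and 51.4% (basal or follicle keratinocytes) were higher in the expanded arm. In 3 of these 19 pairs the 2 arms did not overlap, a count given as a description, without the matching share of all genes. In fibroblasts 4 of 8 members changed where 31.1% of all genes did, in macrophages or monocytes 3 of 7 where 20.6% did, and in endothelial cells 3 of 7 where 11.8% did. Dendritic or Langerhans cells had 3 changed members of 6 (17.9% of all genes), mural cells 2 of 5 (19.3%), lymphatic endothelial cells 2 of 6 (11.7%), basal or follicle keratinocytes 1 of 8 (9.88%) and T cells 1 of 3 (0.3%). None of 5 members changed in Schwann cells (0.894% of all genes), none of 2 in melanocytes (1.36%) and not the 1 tested in NK or innate lymphoid cells (0.634%). In those 3 classes 2, 0 and 0 members had an unadjusted p under 0.05 in edgeR, and DESeq2 called 0 in each.

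The median log2 fold change of the tested members was -0.32 in fibroblasts, against 0.02 for all genes, and -1.32 in macrophages or monocytes, against 0.00. Igfbp5 fell in 5 of the 11 classes in which it was tested and rose in none, but in T cells and in dendritic or Langerhans cells its level was not told apart from background and the call was lost without most single libraries. Igf1 fell in 3 of 6 and rose in 1. Igfbp4 and Igfbp6 each rose in 1 class and fell in 2, of 8 tested. In basal or follicle keratinocytes the level that RNA of fibroblasts would bring fell along with Igfbp6. That call was lost without any of 4 single libraries. Scaling matters for small changes. With library size alone in place of edgeR's TMM factors, the median log2 fold change of all genes moved up by 0.22 in both fibroblasts and dendritic or Langerhans cells and by 0.02 to 0.12 in the other 9 classes. The share of changed genes that were higher in the expanded arm then moved from between 6.90% and 51.4% over the classes to between 26.7% and 79.2%, in fibroblasts from 48.6% to 76.6%. All 19 changes kept their direction under that scaling, and 3 of them no longer passed.

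**Figure D2:**
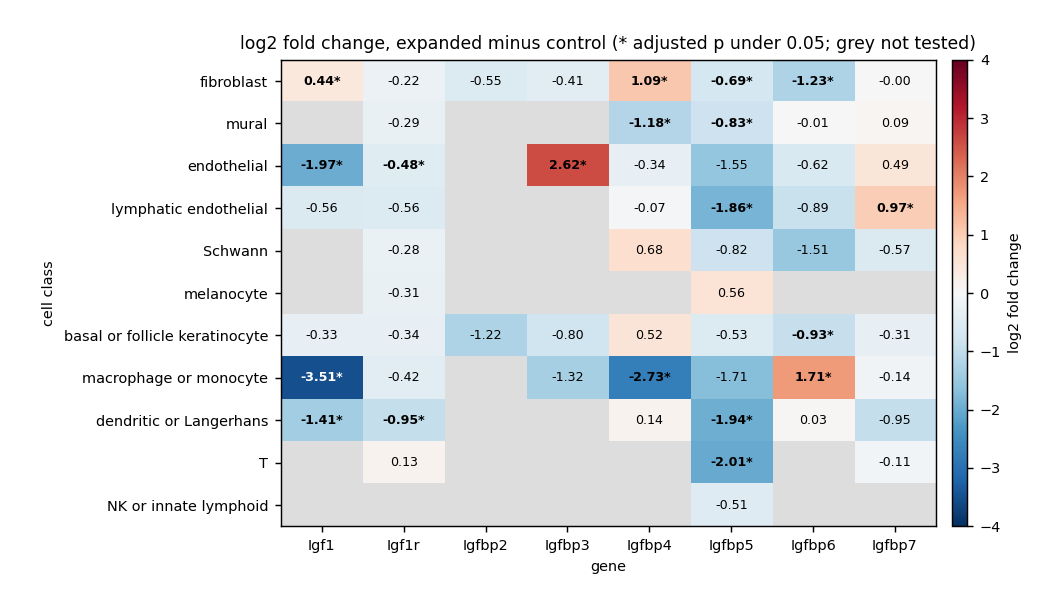
Log2 fold change of each gene (columns), expanded minus control, in each tested cell class (lines), from edgeR; an asterisk and bold type mark an adjusted p under 0.05, and grey means not tested. Blue cells, lower in the expanded arm, outnumber red ones: 14 of the 19 changes were lower, and the 5 higher ones were Igf1 and Igfbp4 in fibroblasts, Igfbp3 in endothelial cells, Igfbp6 in macrophages or monocytes and Igfbp7 in lymphatic endothelial cells. Of all changed genes in the classes with a changed member, 26.1% to 51.4% were higher. The falls of Igfbp5 in T cells and in dendritic or Langerhans cells were not told apart from background.

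Igf1, the ligand, fell in macrophages or monocytes and in endothelial cells and rose slightly in fibroblasts. In macrophages or monocytes the control libraries had 496, 347, 368, 101 and 309 CPM and the expanded libraries 189, 35.4, 6.52, 11.9 and 24.7 CPM. Each expanded library was below its control of the same day and round, and the ranges overlapped through the low control of day 2 round 2 and the high expanded library of day 1 round 1. The log2 fold change was -3.51 (SE 0.66, adjusted p = 0.00747), and it lay between -2.90 without the control library of day 2 round 1 and -4.20 without the expanded library of day 1 round 1. RNA of fibroblasts would bring a mean of 1.79 CPM in control and 4.25 CPM in expanded macrophages.

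Different clusters made up this class in the 2 arms. Cluster 3, led by the resident-type macrophage genes Cd209f, C1qa, C1qb, C1qc and Folr2, held 2272 control and 211 expanded cells. Cluster 1, led by genes such as Chil3, Ly6c2 and Plac8, known from monocytes newly arrived from blood, held 767 and 2375. Igf1 was 399 ± 98.5 CPM (n = 5) in control and 230.2 ± 125 CPM (n = 3) in expanded cells of cluster 3, and 35.0 ± 19.4 and 14.2 ± 15.7 CPM (n = 5 each) in cluster 1. Tested alone, an alternative added after seeing the data, cluster 1 had a log2 fold change of -1.56 (SE 0.49) that did not pass (adjusted p = 0.0964, 5 of 5 pairs lower). Of 6 members tested in that cluster 1 changed, Igfbp5, where 4.35% of all genes did (17.6 ± 16.2 and 2.00 ± 1.29 CPM, n = 5 each; log2 -3.01, SE 0.50, adjusted p = 0.00564). At the fibroblast ratio 28.1 and 14.4 CPM of Igfbp5 would be there, more than was measured in all but 1 library, so the change was not told apart from background. Cluster 3 had too few expanded libraries for a test.

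Endothelial Igf1 was 29.2, 79.5, 57.8, 22.9 and 63.9 CPM in control and 15.5, 11.2, 11.6, 9.40 and 23.1 CPM in expanded libraries. All 5 expanded libraries were below their controls, and only the expanded library of day 4 reached into the control range. The difference was -1.97 on the log2 scale (SE 0.32, adjusted p = 0.00414), and RNA of fibroblasts would bring 3.32 CPM in control and 4.17 CPM in expanded cells. Endothelial Igf1 was highest in cluster 31, with the venular adhesion genes Sele and Selp, at 125 ± 52.2 CPM in 4 control and 40.7 ± 22.3 CPM in 3 expanded libraries. That cluster held 317 control and 130 expanded cells, against 1256 and 979 in cluster 5 (Rbp7, Sox17, Gpihbp1), and had too few expanded libraries for a test. Cluster 5 had 18.5 ± 12.1 and 7.94 ± 4.47 CPM (n = 5 each), and its log2 fold change of -1.28 did not pass (adjusted p = 0.121).

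Fibroblast Igf1 moved the other way, from 148, 133, 122, 159.7 and 115 CPM in control to 208, 310.5, 217, 208 and 145 CPM in expanded libraries. All 5 pairs were higher in the expanded arm, and the expanded library of day 4 lay within the control range. On the log2 scale the rise was 0.44 (SE 0.14, adjusted p = 0.036). It did not pass without the control library of day 1 round 2 (adjusted p = 0.0900), the expanded library of day 1 round 2 (0.0820), the control or the expanded library of day 2 round 1 (0.0824 and 0.0818) or the expanded library of day 2 round 2 (0.0612), at the finer clustering (0.148) or with sums per mouse (0.162). Of 5 fibroblast clusters tested alone Igf1 rose in cluster 10, described with the clusters below, and did not pass in cluster 7, the one with the highest level (551 ± 214 and 529 ± 224 CPM, n = 5 each; log2 -0.09). Nor did it pass in clusters 11 (log2 0.19), 18 (0.12) and 27 (0.10). The finer clustering held other cells in the fibroblast class. Clusters led by Prok2 and Coch (2230 cells), by Cck and Fmod (874) and by Il19 and Tnc (723) stayed unnamed there. Prok2 and Coch are also among the leading genes of cluster 7, Cck and Fmod of cluster 10, and Il19 and Tnc of cluster 11. The part of these cells in the lost call was not tested. In dendritic or Langerhans cells Igf1 was 7.32 ± 2.25 CPM in control and 3.38 ± 2.19 CPM in expanded libraries (n = 5 each). RNA of fibroblasts would bring 2.36 and 2.40 CPM, and the level was above it in 5 control and 3 expanded libraries. That difference (log2 -1.41, SE 0.37, adjusted p = 0.027) was lost without the control library of day 1 round 1 (0.0724), the expanded libraries of day 1 round 2 (0.0633) or day 2 round 1 (0.0572), or either library of day 4 (0.0905 for control, 0.0886 for expanded), and with the stricter mitochondrial limit (0.0853).

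Igf1r, the receptor, fell in dendritic or Langerhans cells and in endothelial cells and did not pass in the 8 other classes tested. In fibroblasts it was 108, 119, 91.3, 83.7 and 76.9 CPM in control and 92.4, 116, 97.6, 89.0 and 79.2 CPM in expanded libraries, with arms that overlapped nearly throughout. The log2 fold change of -0.22 (SE 0.11) did not pass (adjusted p = 0.148), nor did that of -0.34 (SE 0.15) in basal or follicle keratinocytes (adjusted p = 0.168). In dendritic or Langerhans cells Igf1r fell from 41.0, 48.3, 33.5, 18.7 and 18.8 CPM in control to 24.4, 21.7, 13.5, 16.1 and 17.9 CPM in expanded libraries (log2 -0.95, SE 0.22, adjusted p = 0.0181). All 5 pairs were lower, with the smallest gap at day 4. The call was lost without the expanded library of day 1 round 2 (adjusted p = 0.0507) and with cells thinned to 2000 UMIs (0.0682). The clusters of the class were filled unequally and moved in opposite directions. Cluster 4, with Mgl2 and Cd209a among its leading genes, held 1995 control and 478 expanded cells, and Igf1r was lower there in 5 of 5 pairs (38.3 ± 16.4 and 19.9 ± 7.72 CPM; log2 -1.12, SE 0.25, adjusted p = 0.0148, 1 of 5 members where 16.6% of genes changed). Cluster 20, with Ccr7 and Cd207, held 426 and 353 cells, and Igf1r was higher there in 5 of 5 pairs but did not pass (6.73 ± 5.15 and 17.8 ± 7.67 CPM; log2 1.06, SE 0.49, adjusted p = 0.223, 0 of 2 members where 3.84% of genes changed).

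Endothelial Igf1r was 156, 121, 104, 103 and 115 CPM in control and 136, 115, 57.8, 72.5 and 90.1 CPM in expanded libraries, lower in all 5 pairs with overlapping ranges. Its log2 fold change was -0.48 (SE 0.14, adjusted p = 0.0406). The call was lost when any of 8 single libraries was left out (adjusted p between 0.0733 and 0.110; all but the control library of day 1 round 2 and the expanded library of day 1 round 1), with library size alone (0.105), with thinned cells (log2 -0.22, adjusted p = 0.542), with the stricter mitochondrial limit (0.0594) and at the finer clustering (0.0542). In classes with few libraries Igf1r was high in both arms. Neutrophils had 271 and 304 CPM in their 2 control libraries and 248 to 472 CPM in the 5 expanded ones. Mast cells had 258 to 614 CPM in control and 143 to 386 CPM in expanded libraries.

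Igfbp4, a binding protein that the protease PAPP-A cuts to free its ligand, rose in fibroblasts and fell in macrophages or monocytes and in mural cells. Fibroblasts had 86.6, 135, 128, 139.9 and 197 CPM in control and 189.6, 352, 299.7, 314 and 577 CPM in expanded libraries. Each expanded library was above its control of the same day and round, the highest value of both arms was at day 4, and the ranges touched only where the control of day 4 passed the expanded library of day 1 round 1. On the log2 scale the rise was 1.09 (SE 0.17, adjusted p = 0.00107). In macrophages or monocytes Igfbp4 was 165, 129.6, 147, 110.3 and 141 CPM in control and 47.9, 17.2, 8.17, 16.6 and 40.4 CPM in expanded libraries. The arms did not overlap, and the log2 fold change was -2.73 (SE 0.35, adjusted p = 0.00228). By cluster, Igfbp4 was 175 ± 27.7 CPM (n = 5) in control and 96.6 ± 24.9 CPM (n = 3) in expanded cells of macrophage cluster 3, and 42.4 ± 21.6 and 17.4 ± 12.1 CPM (n = 5 each) in cluster 1 (log2 -1.50, SE 0.43, adjusted p = 0.0703 alone).

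In mural cells Igfbp4 was 304, 201, 195, 174 and 303 CPM in control and 153, 174, 106, 84.8 and 58.0 CPM in expanded libraries. The arms did not overlap, by a margin under 1 CPM between the control library of day 2 round 2 and the expanded library of day 1 round 2, and every pair was lower (log2 -1.18, SE 0.24, adjusted p = 0.00678). This call was lost with the stricter mitochondrial limit (adjusted p = 0.0514) and with sums per mouse (log2 -0.32, adjusted p = 0.714). Dermal papilla cells, which had too few control libraries for a test, had 717, 315 and 757 CPM in 3 control libraries (day 1 round 2, day 2 round 2 and day 4) and 363, 167, 282 and 429 CPM in 4 expanded ones (the same and day 2 round 1, which comes second). In keratinocytes (98.0 ± 31.4 and 145 ± 36.3 CPM, n = 5 each) and endothelial cells (203 ± 60.4 and 189.6 ± 115 CPM, n = 5 each) Igfbp4 did not pass (adjusted p = 0.114 and 0.361).

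Igfbp6, a binding protein with a preference for IGF-II, fell in fibroblasts and rose in macrophages or monocytes. Fibroblasts had 733, 693, 674, 581 and 535 CPM in control and 560.0, 370.0, 330.4, 213 and 207 CPM in expanded libraries. All 5 expanded libraries were below their controls, and only the expanded library of day 1 round 1 lay within the control range. The difference was -1.23 on the log2 scale (SE 0.19, adjusted p = 0.00105). Macrophages or monocytes had 21.5, 14.6, 5.81, 24.4 and 10.9 CPM in control and 101, 51.1, 80.9, 63.8 and 18.0 CPM in expanded libraries, against 8.70 and 10.5 CPM that RNA of fibroblasts would bring. All 5 pairs were higher, and the expanded library of day 4 was the one within the control range (log2 1.71, SE 0.33, adjusted p = 0.00814). In cluster 1 alone Igfbp6 was 31.4 ± 10.4 and 77.8 ± 54.6 CPM (n = 5 each), higher in 5 of 5 pairs but not past the threshold (log2 1.03, SE 0.30, adjusted p = 0.067).

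Neutrophils held the second highest Igfbp6, at 166 and 124 CPM in 2 control libraries and 170.1 to 286 CPM in 5 expanded libraries. RNA of fibroblasts would bring at most 38.6 CPM there. With 2 control libraries no test was made. In basal or follicle keratinocytes Igfbp6 was 44.9, 29.3, 25.9, 21.8 and 22.8 CPM in control and 32.3, 19.9, 8.09, 9.66 and 9.31 CPM in expanded libraries (log2 -0.93, SE 0.21, adjusted p = 0.0212). All 5 pairs were lower, and the ranges overlapped at day 1 round 1. RNA of fibroblasts would bring 18.0 CPM in control and 2.32 CPM in expanded keratinocytes, where mean Igfbp6 was 28.9 ± 9.40 and 15.9 ± 10.4 CPM (n = 5 each). The part of that RNA in the difference was not tested. The call was lost without the control library of day 1 round 1 (adjusted p = 0.0671), the expanded library of day 1 round 2 (0.0620) or either library of day 4 (0.0773 for control, 0.0726 for expanded), with thinned cells (0.0926) and at the finer clustering (0.0641).

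Igfbp5, which binds IGFs and components of the extracellular matrix, fell in lymphatic endothelial cells, mural cells and fibroblasts, the 3 classes with the highest control levels. Lymphatic endothelial cells had 2097, 1518, 1012, 1182 and 1210.0 CPM in control and 796, 489.7, 102, 510.3 and 265 CPM in expanded libraries. The arms did not overlap (log2 -1.86, SE 0.30, adjusted p = 0.00181). RNA of fibroblasts would bring at most 227.8 CPM in these cells, whose summed fibroblast markers had medians of 10910.2 CPM in control and 415 CPM in expanded libraries. Sums per mouse gave a log2 fold change of -1.54 that did not pass (adjusted p = 0.0664). Mural cells had 1479, 1489, 1408, 1091 and 1583 CPM in control and 1112, 1070.2, 636, 729 and 749 CPM in expanded libraries. Every pair was lower, with the control of day 2 round 2 just inside the expanded range (log2 -0.83, SE 0.14, adjusted p = 0.00244; log2 -0.91, adjusted p = 0.118 with sums per mouse).

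In fibroblasts Igfbp5 was 1483, 1539, 1861, 1264 and 2091 CPM in control and 1381, 893, 850.4, 1463 and 1383 CPM in expanded libraries. All pairs but that of day 2 round 2 were lower, and the ranges overlapped. The difference was -0.69 on the log2 scale (SE 0.19, adjusted p = 0.017), lost with library size alone (-0.46, adjusted p = 0.0630) and without the control or the expanded library of day 4 (0.0554 and 0.0569). Igfbp5 also passed in T cells and in dendritic or Langerhans cells, at levels close to what RNA of fibroblasts would bring. T cells had 19.9 ± 5.93 CPM in control and 6.34 ± 5.14 CPM in expanded libraries (n = 5 each) against 22.0 and 7.80 CPM at the fibroblast ratio, and dendritic or Langerhans cells 31.1 ± 20.9 and 11.2 ± 15.3 CPM (n = 5 each) against 27.6 and 11.8 CPM. T cells were above that level in 3 control and 2 expanded libraries and dendritic or Langerhans cells in 3 and 1, so these values were not told apart from background. The T cell call (log2 -2.01, SE 0.37, adjusted p = 0.0463) was lost with the replicate block (0.0534) and without any single library but the expanded library of day 2 round 2 (0.0595 to 0.204), and the dendritic one (-1.94, SE 0.53, adjusted p = 0.0305) without any of 7 single libraries (0.0556 to 0.0791; all but the expanded library of day 1 round 1 and the control libraries of day 1 round 2 and day 2 round 1).

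Igfbp3, the main carrier of IGF-I in blood, with its highest level in dermal papilla cells here, rose in endothelial cells. Endothelial Igfbp3 was 8.20, 44.8, 9.90, 32.2 and 58.1 CPM in control and 45.3, 112, 599.6, 173 and 461 CPM in expanded libraries. All 5 pairs were higher, and the expanded library of day 1 round 1 was the one within the control range. The rise was 2.62 on the log2 scale (SE 0.56, adjusted p = 0.0125), between 2.12 without the expanded library of day 2 round 1 and 3.47 without the control library of day 1 round 2. RNA of fibroblasts would bring 1.89 and 1.11 CPM, and dermal papilla RNA was not measured in the same way. Cluster 5 alone gave a log2 fold change of 2.33 (SE 0.56, adjusted p = 0.022), and 10.6% of its genes changed, Igf1r among them (log2 -0.54, SE 0.14, adjusted p = 0.0261). In lymphatic endothelial cells, where the gene did not pass the filter on low counts, Igfbp3 was 0, 21.9, 0, 7.98 and 11.7 CPM in control and 66.5, 4.55, 13.5, 26.0 and 336 CPM in expanded libraries. The highest value of that class came from 1 library, the expanded one of day 4.

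Dermal papilla cells had 1297, 3616 and 2443 CPM of Igfbp3 in 3 control libraries (day 1 round 2, day 2 round 2 and day 4) and 5703, 4069.9, 5063 and 6409 CPM in 4 expanded libraries (the same and day 2 round 1, which comes second). All 4 expanded libraries were above all 3 control libraries, with no test because of the number of libraries. In basal or follicle keratinocytes Igfbp3 was 51.0, 91.5, 67.3, 43.4 and 38.0 CPM in control and 19.4, 46.4, 25.7, 31.1 and 40.0 CPM in expanded libraries, lower in 4 of 5 pairs. The log2 fold change of -0.80 (SE 0.29) did not pass (adjusted p = 0.0968), and it passed with the replicate block (-0.83, SE 0.21, adjusted p = 0.0329), under which 13.7% of all genes in the class changed. Fibroblast Igfbp3 was 82.3 ± 22.6 and 75.1 ± 28.0 CPM (n = 5 each) and did not pass (log2 -0.41, SE 0.22, adjusted p = 0.192).

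**Figure D3:**
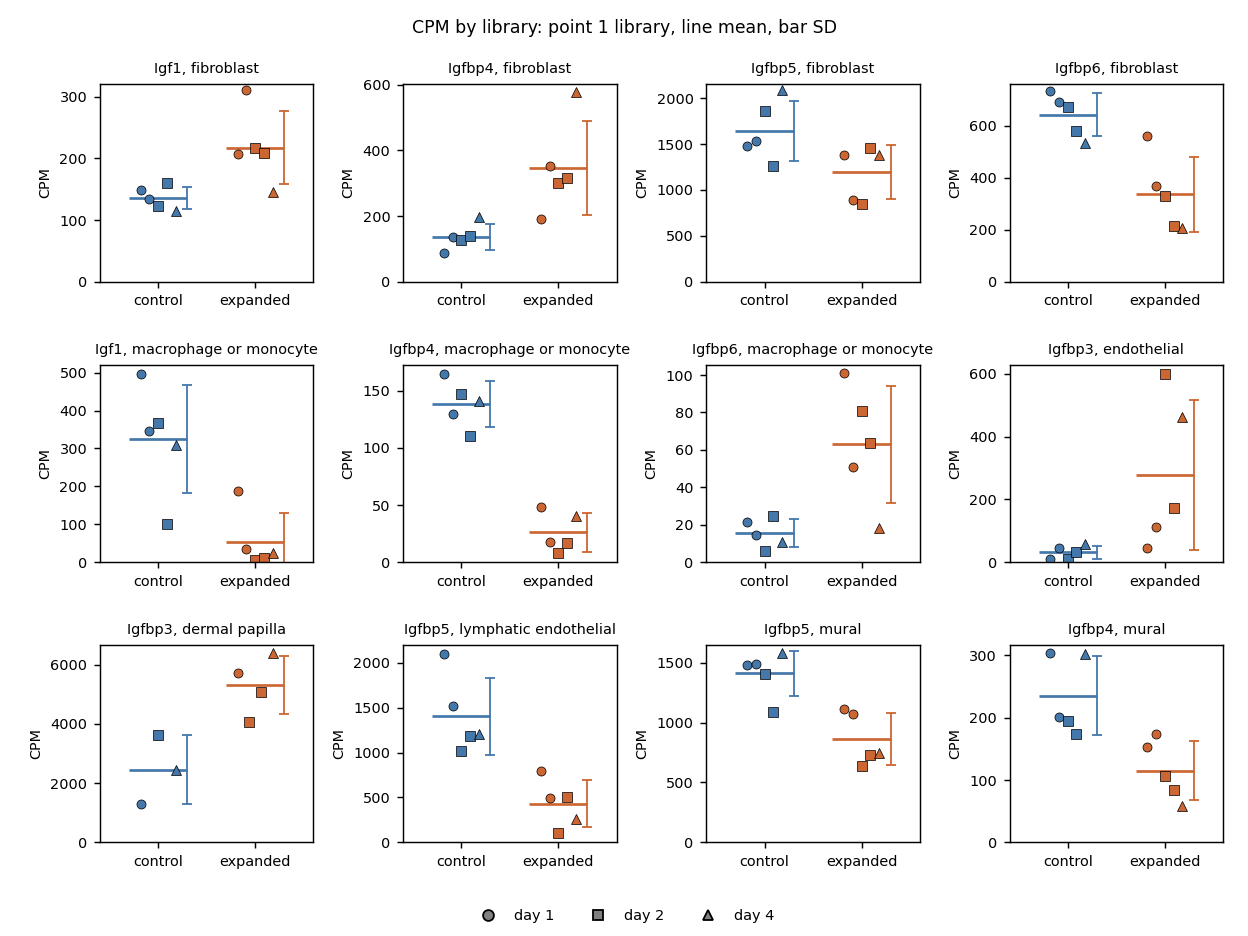
Level in CPM (vertical axis, from 0) of selected genes and cell classes by arm; each point is 1 library, its shape gives the day, lines are means and bars are SD. In macrophages or monocytes Igfbp4 of the 5 expanded libraries (8.17 to 47.9 CPM) lies below all control libraries (110.3 to 165 CPM), and in fibroblasts Igfbp4 is higher and Igfbp6 lower in the expanded arm.

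Igfbp7, a low-affinity IGF binder of the vessel wall, rose in lymphatic endothelial cells. Its values there were 114, 131, 134, 388 and 251 CPM in control and 322, 350.4, 552, 397 and 507 CPM in expanded libraries. All 5 pairs were higher, and only the control of day 2 round 2 lay within the expanded range (log2 0.97, SE 0.22, adjusted p = 0.0111). The call was lost without the expanded library of day 4 (adjusted p = 0.0503) and with sums per mouse (log2 0.37, adjusted p = 0.598). Endothelial cells had 2486, 3378, 2843, 4540.1 and 4649.8 CPM in control and 3869, 4899, 6895, 6455 and 5005 CPM in expanded libraries, higher in all 5 pairs with overlapping ranges. The log2 fold change of 0.49 (SE 0.15) did not pass (adjusted p = 0.057), and it passed with the replicate block (0.49, SE 0.14, adjusted p = 0.0352), under which 16% of all genes in the class changed. In mural cells (3694 ± 719 and 4226 ± 930.3 CPM, n = 5 each) and fibroblasts (1054 ± 429.7 and 1184 ± 363 CPM, n = 5 each) the adjusted p was 0.709 and 0.992.

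Igfbp2 could be tested in fibroblasts and keratinocytes and passed in neither, with an unadjusted p under 0.05 in 1 of the 2 in edgeR. Fibroblasts had 133, 291, 232, 39.5 and 319 CPM in control and 92.3, 85.9, 309, 63.7 and 291 CPM in expanded libraries. Values of day 2 round 2 were the lowest in both arms (log2 -0.55, SE 0.56, adjusted p = 0.486). Keratinocytes had 28.5, 43.4, 31.0, 44.0 and 45.7 CPM in control and 10.7, 4.36, 33.5, 12.2 and 48.6 CPM in expanded libraries, with 3 of 5 pairs lower (log2 -1.22, SE 0.41, adjusted p = 0.0807). The sebocyte class, of 68 cells at this clustering and with enough of them in the expanded library of day 4 alone, had 315 CPM. The finer clustering put 581 cells in a sebocyte cluster, of which 284 control and 229 expanded cells came from keratinocyte cluster 9.

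Fibroblast clusters differed widely in their binding proteins, and the 2 arms filled them unequally. The fibroblast class was made of 10 clusters. Cluster 0 (led by Mirg, Cpz and Rian) held 4701 control and 153 expanded cells, cluster 8 (Cthrc1, Rbp4, Cilp) 1714 and 119, and cluster 6 (Scg3, Vstm2a, Grem1) 1808 and 377. Cluster 11 (Mme, Tnc, Sema3a) held 643 and 921, cluster 7 (Hapln1, Chrm2, Tnn) 925 and 963, cluster 10 (Fmod, Cck, Kera, Tnmd) 1075 and 554 and cluster 27 (Apod, Ebf2, Gpc3) 267 and 279. Igfbp4 had the widest spread: control levels were 1.09 ± 0.458 CPM in cluster 0, 2.69 ± 2.61 CPM in cluster 6 and 4.32 ± 3.84 CPM in cluster 11, against 759.8 ± 333 CPM in cluster 27, 642 ± 262 CPM in cluster 18 (Acan, Lrrc15 and cell cycle genes) and 609 ± 108 CPM in cluster 10 (n = 5 each). The part of the unequal filling in the Igfbp4 difference of the whole class was not tested beyond the values by cluster.

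Other members sorted the clusters in other ways. Igfbp2 was 1521 ± 1001 CPM in cluster 11 and 691 ± 405 CPM in cluster 6, and 5.18 ± 6.78 CPM in cluster 10 (control, n = 5 each). Igfbp5 was highest in cluster 10, at 4145 ± 1029 CPM, and lowest in cluster 27, at 176 ± 95.6 CPM, which in turn had the second highest Igfbp6, 1551 ± 294 CPM, after cluster 21 (Sult1e1, Cxcl13) at 1624 ± 438 CPM. Igf1 was 551 ± 214 CPM in cluster 7 and 424 ± 93.3 CPM in cluster 21, against 19.3 ± 7.65 CPM in cluster 6 (control, n = 5 each). Clusters 6 and 11, low in Igfbp4 and Igf1, were thus the clusters with the most Igfbp2.

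**Figure D4:**
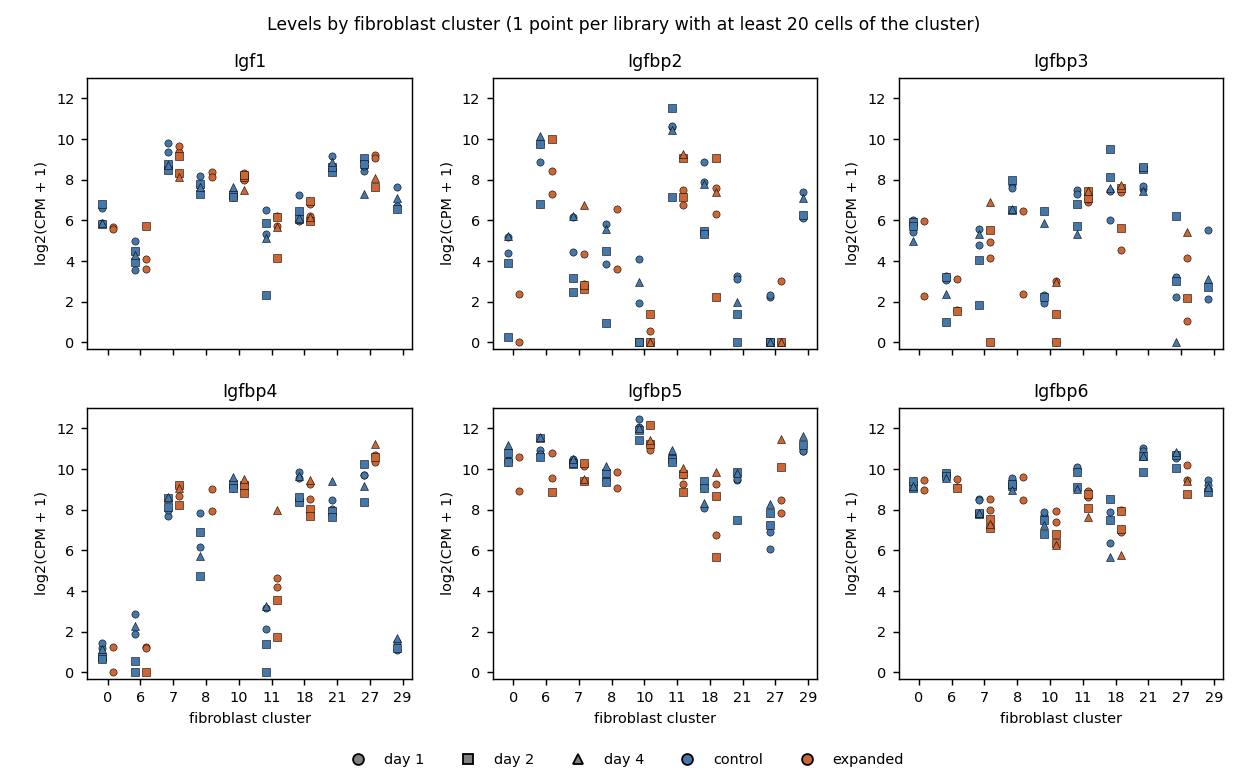
Level of 6 members in each fibroblast cluster (horizontal axis, cluster number) as log2(CPM + 1) (vertical axis); each point is 1 library with at least 20 cells of the cluster, blue for control and orange for expanded, its shape giving the day. Igfbp4 separates clusters 0, 6 and 29, near 0 to 3 on this scale, from clusters 7, 10, 18, 21 and 27, above 7.

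Enough libraries in both arms for a test of the cluster alone were found in 5 fibroblast clusters, and these tests were added after seeing the data. In cluster 18 none of 8 members changed where 0.396% of all genes did, and Igfbp4 was lower there in 5 of 5 pairs (642 ± 262 and 430.4 ± 217 CPM, n = 5 each; log2 -0.56, SE 0.19, adjusted p = 0.299). In cluster 11, 4 of 8 members changed (24% of all genes did). Igfbp5 fell from 1606, 1333, 1466, 1319.5 and 1976 CPM in control to 839, 612, 461, 866 and 1069 CPM in expanded libraries, with no overlap (log2 -1.05, SE 0.17, adjusted p = 0.000891). Igfbp6 fell from 1038, 1113, 921, 562 and 521 CPM to 489, 395, 439, 272 and 202 CPM, also with no overlap (log2 -1.24, SE 0.18, adjusted p = 0.000524). Its log2 fold change was smaller and did not pass in clusters 7 (-0.38), 10 (-0.49) and 18 (0.0032). Igfbp2 fell in 5 of 5 pairs, from 1540.0, 1571, 2966, 143 and 1383 CPM to 178, 108, 534, 141 and 621 CPM, where day 2 round 2 was low in both arms (log2 -2.51, SE 0.64, adjusted p = 0.0135). Igfbp4 rose from at most 8.66 CPM to 24.0, 17.1, 11.0, 2.37 and 255 CPM, where the library of day 4 stood far above the rest (log2 3.35, SE 0.53, adjusted p = 0.000885).

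In cluster 27, with Apod and Gpc3, 3 of 6 members changed (6.67% of all genes), and Igfbp5 went against the class. It rose from 121, 65.3, 232, 152 and 308 CPM in control to 352, 227, 1109.9 and 2888 CPM in 4 expanded libraries (without day 2 round 2), higher in 4 of 4 pairs with overlapping ranges (log2 2.31, SE 0.29, adjusted p = 0.000483). Igfbp4 rose from 759.8 ± 333 CPM (n = 5) to 1724 ± 495 CPM (n = 4) with no overlap (log2 1.09, SE 0.31, adjusted p = 0.0495), and Igfbp6 fell from 1551 ± 294 to 753 ± 317 CPM (log2 -1.22, SE 0.24, adjusted p = 0.00797). Cluster 7 had 1 changed member of 8 (8.93% of genes), Igfbp4, at 301 ± 82.9 and 479.7 ± 123 CPM (n = 5 each; log2 0.69, SE 0.20, adjusted p = 0.0397). Cluster 10 had 1 of 6 (2.67%), Igf1, which rose from 140.1, 143, 153, 141 and 199 CPM to 323, 255, 279, 303 and 182 CPM, the day 4 pair alone going the other way (log2 0.75, SE 0.17, adjusted p = 0.0299). In cluster 10 Igfbp4 was 609 ± 108 and 582 ± 105 CPM (n = 5 each; log2 -0.10, SE 0.12, adjusted p = 0.684).

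Keratinocyte clusters differed in a like way. In cluster 9, with Akr1c18, Fgfbp1 and Ly6d, 5 of 7 members were lower in the expanded arm, where 20.3% of all genes changed. Of its cells, 284 of 723 in control and 229 of 1054 in expanded libraries were sebocytes at the finer clustering, so it mixes sebocytes with keratinocytes in unequal shares. Igfbp3 fell from 54.6, 137, 50.8, 44.4 and 57.1 CPM to 13.3, 39.2, 28.3, 17.6 and 43.9 CPM with no overlap (log2 -1.34, SE 0.35, adjusted p = 0.0174), and Igfbp2 from 83.6 ± 37.7 to 38.2 ± 31.0 CPM (n = 5 each; log2 -1.56, SE 0.40, adjusted p = 0.0166). In a split chosen after seeing the data, the cells left without those sebocytes had 30.3 ± 29.5 and 29.0 ± 23.9 CPM of Igfbp2 and 131 ± 93.2 and 37.1 ± 19.6 CPM of Igfbp3 (n = 5 each). The sebocytes had 169.5 ± 40.3 CPM of Igfbp2 in 4 control and 69.3 ± 52.9 CPM in 3 expanded libraries. Igfbp5, Igfbp6 and Igfbp7 also fell in cluster 9, from control means of 44.5, 19.4 and 41.3 CPM to 5.26, 3.63 and 16.9 CPM. At the fibroblast ratio their levels would be 45.9, 18.5 and 28.7 CPM in control and 4.20, 1.37 and 4.56 CPM in expanded cells of that cluster. Igfbp5 was above that level in 2 control and 2 expanded libraries, Igfbp6 in 3 and 4 and Igfbp7 in 4 and 5. The falls of Igfbp5 and Igfbp6 were thus not told apart from background. In cluster 2 (Krt24, Shisa2, Lhx2), 0 of 7 changed where 1.38% of genes did.

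The difference between the arms was itself compared between classes, with the library as a block. Against fibroblasts, macrophages or monocytes differed in 3 of 8 members, where 11.5% of all genes did: the arm effect was lower by a log2 of -4.08 for Igf1 (SE 0.81, adjusted p = 0.011) and -3.92 for Igfbp4 (SE 0.48, adjusted p = 0.00253), and higher by 2.97 for Igfbp6 (SE 0.39, adjusted p = 0.00263). Endothelial cells differed from fibroblasts in 3 of 8, where 5.83% of genes did: Igf1 (-2.23, SE 0.47, adjusted p = 0.0141), Igfbp4 (-1.32, SE 0.25, adjusted p = 0.00803) and Igfbp3 (2.87, SE 0.63, adjusted p = 0.018). All 6 also passed with library size alone. A change of the arm effect with day was asked in the 8 classes with a changed member. No member passed in 50 tests by edgeR, 10 with an unadjusted p under 0.05 (12 with the replicate block, none of them past adjustment). In lymphatic endothelial cells 0.0462% of all genes passed and in the other 7 classes 0%, and day 4 had 1 library per arm.

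Other genes of the pathway came from a list of 54: other ligands, receptors, carrier and related proteins, proteases with their inhibitors, and signalling genes. In fibroblasts 47 could be tested, and 6 rose and 14 fell (42.6% against 31.1% of all genes), with a median log2 fold change of -0.14. Among proteases and inhibitors 4 of 9 rose and 1 fell. Timp1, an inhibitor of metalloproteases, rose from 142 to 1048 CPM (log2 2.76, SE 0.38, adjusted p = 0.000671), and the stanniocalcins Stc1 (log2 0.94, SE 0.24, adjusted p = 0.0146) and Stc2 (log2 0.86, SE 0.28, adjusted p = 0.0391), inhibitors of PAPP-A, rose with it. Both tested receptors fell, Igf2r, which clears IGF-II, by a log2 of -0.98 (SE 0.12, adjusted p = 0.000489) and the insulin receptor gene Insr by -0.74 (SE 0.11, adjusted p = 0.000911). Kazald1, a protein related to the binding proteins, fell from 91.5 to 25.5 CPM (log2 -2.04, SE 0.19, adjusted p = 0.000232), and the receptor's adaptor Irs1 from 21.3 to 11.3 CPM (log2 -1.18, SE 0.22, adjusted p = 0.00259).

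In macrophages or monocytes 35 pathway genes were tested, and 5 rose and 3 fell (22.9% against 20.6% of all genes). Igf2r rose from 5.41 to 40.1 CPM (log2 2.69, SE 0.42, adjusted p = 0.00413), opposite to fibroblasts, a difference that was not tested. Timp1 (log2 1.69, SE 0.21, adjusted p = 0.00228) and the cytokine signalling suppressor Socs2 (log2 1.29, SE 0.25, adjusted p = 0.00785) also rose. Crim1, which carries an IGF-binding domain, fell from 38.0 to 7.97 CPM (log2 -2.81, SE 0.47, adjusted p = 0.00524), Insr by a log2 of -1.42 (SE 0.33, adjusted p = 0.017) and the kinase gene Akt2 by -0.68 (SE 0.19, adjusted p = 0.0309).

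Levels over 139 units of class and library were last used to name the genes most like each member, by Pearson correlation of log2(CPM + 1), as a description over units that share libraries and depth. Igfbp7 went with the basement membrane collagen genes Col4a2 (r = 0.90) and Col4a1 (0.86), Igfbp5 with Nbl1 (0.84), Col5a1 (0.83) and Serping1 (0.82), and Igfbp6 with Ccdc80 (0.74), Efemp1 (0.71) and Dpt (0.70). Igfbp3 went with Crispld1 (0.73), Ptk7 (0.72) and Prlr (0.71), Igfbp4 with Tmtc1 (0.72), Phldb2 (0.71) and Nupr1 (0.70), and Igfbp2 with Slc6a2 (0.67), Grem1 (0.66) and Ltbp2 (0.65). The ligand's nearest gene was Cfb (0.73) and the receptor's Agap1 (0.73), and Igf1 and Igf1r themselves had r = 0.14.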

How the data were processed

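Single-cell mRNA was measured in 10 libraries, 5 per arm, with 8 hashing samples that mark 28 mice. The deposited matrices hold UMI counts per gene and cell; the submitters' processing notes name Cell Ranger 6.1.2 and mm10. A barcode was kept if it had 200 genes, 500 UMIs and a mitochondrial share of no more than 10% (8.60% to 24.4% of a library's barcodes were over that limit), and 1077 doublets called by Scrublet (0.0292% to 2.96% per library) or by hashtags were removed, so some doublets may remain where Scrublet called few. Cells were clustered with scanpy 1.11.5 and leidenalg 0.10.2 on a shared-neighbour graph, leaving out the 8 genes and the pathway list, and classes were named from marker lists, with naming details set while looking at the clusters. The members and lists were chosen with earlier results of these data known.

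Counts were summed per class and library (at least 20 cells, at least 4 libraries per arm) and tested in R 4.3.3 with edgeR 4.0.16 (quasi-likelihood test, TMM, filterByExpr, day as covariate, Benjamini-Hochberg adjustment over all genes tested in the class); every adjusted p comes from edgeR unless DESeq2 1.42.0 is named. The text names all 8 members, up to 3 called pathway genes each way with the largest change in fibroblasts and in macrophages or monocytes, Insr in fibroblasts (outside the rule, named after its values were seen), and the 3 genes most like each member. The sequencing round and day pair the libraries, per the labels; deviations of paired libraries correlated at -0.0462 to 0.499, over 0.1 in 43 of 53 pairs. Alternatives were DESeq2, library size alone, no filter, the replicate block, cells thinned to 2000 UMIs, a mitochondrial limit of 5%, clustering at resolution 2, sums per mouse and leaving out each library. Sums per mouse rest on fewer cells, because both libraries of day 1 round 1 had no hashed mice and drop out. Elsewhere only part of the cells had a mouse, as in control day 1 round 2 (3743 of 8023). The edgeR comparison of the arms was tried on simulated counts of fibroblasts, endothelial cells, macrophages or monocytes and lymphatic endothelial cells. Those counts held no day effect and no likeness of paired libraries. Levels rest on 17726739 to 75470722 gene UMIs per library, and depth limits low genes: a class total gives no reading under 3 counts.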

Additional observations from a re-analysis of the deposited data

Results flagged for a closer look

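Among 38 groups of libraries tested for a single library far from the others, 3 had one, and chance gives about 1 in 20. Igfbp5 of dendritic or Langerhans cells was 38.4 CPM in the expanded library of day 1 round 1, far above the other expanded libraries. Igf1 of the same class reached 11.1 CPM in control day 1 round 1, above the other control libraries. Igf1 of macrophages or monocytes was 189 CPM in the expanded library of day 1 round 1, where the other expanded libraries had at most 35.4 CPM. That library's macrophages also had the highest summed fibroblast markers of their arm, and at the ratio of its own fibroblasts that RNA would bring 17.8 CPM of Igf1.

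The difference between the arms itself differed between classes by edgeR's interaction test for 6 pairs of gene and class. All 8 members were tested in both comparisons. Of all genes, 11.5% passed for macrophages or monocytes against fibroblasts and 5.83% for endothelial cells against fibroblasts. Relative to fibroblasts, the arm effect in macrophages or monocytes was -4.08 for Igf1, -3.92 for Igfbp4 and 2.97 for Igfbp6 on the log2 scale. In endothelial cells it was -2.23 for Igf1, -1.32 for Igfbp4 and 2.87 for Igfbp3.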

How the results depend on the processing

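The 19 changes kept their direction under every alternative run on the whole class. All 19 passed with DESeq2 and with no filter, 16 with library size alone, 18 with the replicate block, 13 of 16 with cells thinned to 2000 UMIs, 15 with the mitochondrial limit of 5%, 15 at clustering resolution 2 and 9 of 14 with sums per mouse; of 190 fits without 1 library, 148 passed. The replicate block lost Igfbp5 in T cells (-1.98, adjusted p = 0.0534), gained 2 changes given above, and changed no other call. The number of all changed genes also moves with the setting. In basal or follicle keratinocytes it was 1139 in the main fit, 220 with thinned cells and 897 at resolution 2. The member counts that follow are given without that share and are no result about the members. The number of changed members moved with no filter to 3 in NK or innate lymphoid cells, 2 in Schwann cells, 5 in keratinocytes, 6 in dendritic or Langerhans cells, 5 in endothelial, 4 in lymphatic endothelial and 6 in macrophages or monocytes, 1 in melanocytes and 4 in mural cells. With DESeq2 it was 3 in keratinocytes and 5 in endothelial cells; with the replicate block 2 in keratinocytes and 0 in T cells; thinned, 0 in T cells, keratinocytes and dendritic or Langerhans cells. T cells had 0 with library size alone, the mitochondrial limit of 5% (mural cells 1), resolution 2 and sums per mouse, which gave 3 in keratinocytes, 1 in dendritic or Langerhans cells and 0 in lymphatic endothelial and mural cells. Without 1 library the number lay between 0 and 1 in Schwann and T cells, 0 and 2 in keratinocytes, 0 and 3 in dendritic or Langerhans cells, 2 and 5 in endothelial cells, 3 and 4 in fibroblasts and macrophages or monocytes, 1 and 3 in lymphatic endothelial cells and 2 and 3 in mural cells. In single clusters, an alternative chosen after seeing that clusters took different shares of the arms, 6 directions turned: Igf1r in dendritic cluster 20 (1.06), Igfbp5 in fibroblast cluster 27 (2.31), Igf1 in cluster 7 (-0.085), Igfbp4 in clusters 10 (-0.10) and 18 (-0.56) and Igfbp6 in cluster 18 (0.0032). The cause was not tested.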
